A study of Mus musculus with 2 samples.

Results

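The 5 mouse genes Serpina1a, Serpina1b, Serpina1c, Serpina1d and Serpina1e, the paralogues that encode mouse alpha-1-antitrypsin, were followed cell by cell in pancreatic tumour tissue. They were found by their symbols among the 32285 genes of the count matrices, and as a set they were selected on their UMI counts, which earlier work on these libraries had shown to differ between the groups, so that difference is described here and not tested. In the EL1 line (EL1-Luc/EL1-Tag) the elastase I promoter, which is active in acinar cells of the pancreas, drives luciferase and the SV40 T antigen, and the mice develop pancreatic tumours. WTg mice (EL1-Luc/EL1-Tag x CAG-Mettl3) add to these transgenes a Mettl3 transgene driven by the ubiquitous CAG promoter, Mettl3 being the methyltransferase that deposits N6-methyladenosine on mRNA. Each group is 1 single-cell library of dissociated pancreas from mice aged 6 weeks, and the number of mice behind a library is not given in the sources used here. The EL1 line was kept on FVB/N and the Mettl3 line on C57BL/6, so every difference between the libraries could come from the Mettl3 transgene, from the strain background, from the mice sampled or from the library, and these cannot be told apart. With 1 library per group no test between the groups was possible. All intervals below are 95% intervals that cover counting error only, and a difference between the libraries is a difference between those 2 libraries.

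Alpha-1-antitrypsin is a serpin, a protease inhibitor that is cleaved within an exposed loop and then traps the protease that cut it. Hepatocytes secrete most of it into the plasma, where it holds neutrophil elastase in check, and pancreatic endocrine cells are known to make some as well. Humans have a single gene, whereas the mouse carries a tandem array of copies whose loops differ in sequence and whose number differs between inbred strains. The reference genome used for counting comes from C57BL/6.

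The array lies on the minus strand of chromosome 12 (GRCm38, GENCODE M21) and spans 231 kb. In chromosomal order the copies are Serpina1b (ENSMUSG00000071178, chr12:103728156-103830373), Serpina1d (ENSMUSG00000071177, chr12:103763594-103773592), Serpina1a (ENSMUSG00000066366, chr12:103853589-103863562), Serpina1c (ENSMUSG00000079015, chr12:103894926-103904887) and Serpina1e (ENSMUSG00000072849, chr12:103946931-103958975). The annotated span of Serpina1b is long because of an extended isoform and contains Serpina1d on the same strand. The compared transcripts have 5 exons each and a coding sequence of 1242 bases, and any pair differed at 19 to 46 of those bases, an identity of 96.3% to 98.5%. Serpina1a and Serpina1c were the closest pair, with 19 differing bases.

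The differences were not spread evenly along the coding sequence. The stretch of 60 bases with the most variable positions held 18 of them, against a median of 4 in windows of that length, and it lies in the last exon of each gene, in the part that codes for the protease-facing loop. It is shown because it is where the 5 coding sequences differ most. Capitals mark positions at which the 5 copies are not all the same, and positions 1101 to 1160 are counted from the first base of the start codon in the GENCODE M21 transcripts.
Serpina1a: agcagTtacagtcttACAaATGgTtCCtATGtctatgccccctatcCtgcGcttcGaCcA
Serpina1b: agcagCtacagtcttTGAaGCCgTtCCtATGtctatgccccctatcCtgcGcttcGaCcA
Serpina1c: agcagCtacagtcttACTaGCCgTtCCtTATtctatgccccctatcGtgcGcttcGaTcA
Serpina1d: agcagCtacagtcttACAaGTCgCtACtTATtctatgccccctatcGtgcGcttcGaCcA
Serpina1e: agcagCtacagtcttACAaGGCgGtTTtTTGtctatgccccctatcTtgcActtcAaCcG
Within this window Serpina1e differed from the other copies at 10 to 12 of 60 bases, and Serpina1c and Serpina1d were the closest pair, at 5 bases. The windows lie at chr12:103853757-103853816 (Serpina1a), chr12:103728324-103728383 (Serpina1b), chr12:103895094-103895153 (Serpina1c), chr12:103763762-103763821 (Serpina1d) and chr12:103947100-103947159 (Serpina1e).

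The promoters shared an identical stretch, although as a whole they were not more alike than the coding sequences. Pairs of copies were 92.1% to 98.0% identical over the aligned part of the 250 bases before the start site. Over the coding sequence they were 96.3% to 98.5% identical. All 5 promoters, taken as RefSeq sequence (GRCm38.p6) from 250 bases before to 50 bases after the start site, shared an identical stretch of 55 bases, which no other of the 32851 promoters in that table held. It is shown because only the 5 members held it, and whether it bears on their levels was not tested. The capitals mark the letters GTTAATATT, which were searched for in all promoters.
Serpina1a to Serpina1e: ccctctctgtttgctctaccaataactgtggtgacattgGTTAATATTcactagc
The stretch lies at chr12:103863625-103863679 for Serpina1a, chr12:103738200-103738254 for Serpina1b, chr12:103904962-103905016 for Serpina1c, chr12:103773634-103773688 for Serpina1d and chr12:103956960-103957014 for Serpina1e, all on the minus strand. GTTAATATT was found, on either strand, in 97 of the 32851 promoters (0.295%) and the shorter GTTAAT, contained in it, in 2332 (7.10%). A match of letters is a description and not evidence that a factor binds there.

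The libraries give counts of unique molecular identifiers (UMIs), each standing for 1 captured mRNA molecule read near its 3′ end, so gene length does not enter the level. Reads that fit several genes equally well are by default not counted by the software used, which can lower the level of a copy that resembles another. Over the last 600 transcript bases, an exact stretch of 90 bases was shared with another serpin transcript in 20.7% of windows for Serpina1c, 17.6% for Serpina1a, 6.07% for Serpina1d, 2.94% for Serpina1b and 0% for Serpina1e. Levels of different copies are therefore uncertain relative to each other, most of all those of Serpina1a and Serpina1c, which shared windows with each other. The 90 bases are an assumed read length.

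Barcodes with under 500 genes, under 1000 UMIs or over 20% of UMIs from mitochondrial genes were left out, after which 1113 of 1621 EL1 barcodes and 905 of 1488 WTg barcodes remained, with 37961287 and 33007683 UMIs and medians of 26543 and 34836 UMIs per cell. No kept barcode occurred in both libraries, although 15 of the deposited ones did. Mettl3 itself stood at 15.1 CPM (UMIs per 1000000) in EL1 and at 66.7 CPM in WTg, with a log2 ratio of WTg over EL1 of 2.14 (2.01 to 2.27). The EL1 value is that of the endogenous gene, and the WTg value does not separate this gene from the transgene. Clustering without the paralogues and without cell cycle genes gave 17 clusters. Several clusters came almost wholly from 1 library: clusters 0, 7 and 10 held 315, 128 and 76 EL1 cells beside 2, 1 and 0 of WTg, and clusters 3 and 4 held 186 and 174 WTg cells beside 1 and 7 of EL1. Clusters 1, 2 and 15 met the marker rule for neuroendocrine-like cells, with 5, 6 and 7 of 12 markers raised, in each case with the granule protein chromogranin B (Chgb) among them. This class held 271 EL1 cells, 247 of them in cluster 1, and 193 WTg cells, 178 of them in cluster 2, so the class was compared across different clusters. Of the 12 markers, Scg2 was at 0 in EL1. The summed list stood at 10550 CPM in the EL1 cells of the class and at 7156 CPM in the WTg cells. These cells also held transcripts of all 13 acinar markers, with sums of 57357 CPM (EL1) and 63716.5 CPM (WTg), against 94836 and 108059 CPM over all kept cells, and the part of acinar RNA in the levels below was not tested.

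All 5 paralogues were higher in the WTg library. Over all kept cells the 5 genes together (the family) gave 3955 UMIs in EL1 and 21186 in WTg, or 104 CPM (101 to 108) against 642 CPM (633 to 651), a log2 ratio of 2.62 (2.57 to 2.67). Among the 16167 genes with at least 10 UMIs, 1636 (10.1%) were higher by at least 2-fold in WTg and 1116 (6.90%) were lower, and all 5 members were among the former. The rule that chose the members used this contrast, so nothing is read from that count. The median log2 ratio over all those genes was -0.14.

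Serpina1c was the main copy in both libraries. It gave 2651 UMIs in EL1 and 16010 in WTg, or 69.8 CPM against 485 CPM, and a log2 ratio of 2.80 (2.74 to 2.86). Serpina1b followed in WTg, with 54.0 CPM against 8.75 CPM in EL1 and a log2 ratio of 2.63 (2.46 to 2.80). Serpina1a stood at 10.7 CPM in EL1 and at 48.6 CPM in WTg, with a log2 ratio of 2.18 (2.03 to 2.34). The copies at the ends of the range were the remaining 2. Serpina1d, the second copy by level in EL1 at 13.2 CPM, reached only 37.9 CPM in WTg and had the smallest log2 ratio of the 5, 1.52 (1.37 to 1.67). Serpina1e, the least detected copy, had the largest, 3.26 (2.89 to 3.65), from 65 UMIs or 1.71 CPM in EL1 to 541 UMIs or 16.4 CPM in WTg. The intervals of Serpina1d and of Serpina1e each lay apart from those of the other members, and those of Serpina1b and Serpina1c overlapped. The order of the copies by level was therefore Serpina1c, 1d, 1a, 1b, 1e in EL1 and Serpina1c, 1b, 1a, 1d, 1e in WTg. Neighbours in these orders had intervals that lay apart, except Serpina1a and Serpina1b in EL1, at 9.68 to 11.8 and 7.83 to 9.74 CPM. Serpina1f, the further gene of the array that shares the name, had 4 UMIs in EL1 and 2 in WTg, and no ratio is given for it.

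**Figure D1:**
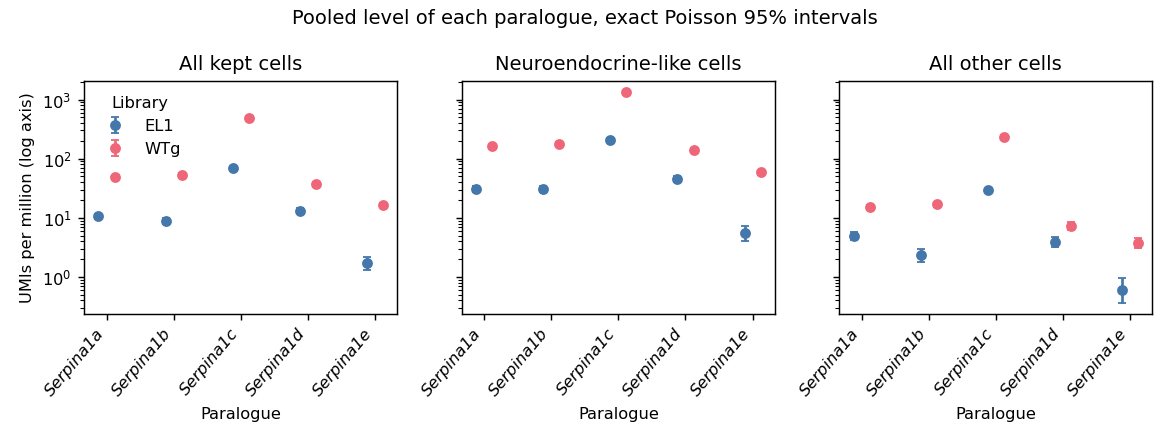
Pooled level of each paralogue in UMIs per 1000000 on a log axis, for all kept cells, for neuroendocrine-like cells and for all other cells, with 1 EL1 and 1 WTg library. Points are pooled counts and bars exact Poisson 95% intervals. Every WTg point lies above the EL1 point of the same gene, with the narrowest gap for Serpina1d and the widest, over all kept cells and in neuroendocrine-like cells, for Serpina1e.

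The family was most abundant in cells with neuroendocrine markers. In neuroendocrine-like cells it stood at 323 CPM in EL1 (2751 UMIs) and 1880 CPM in WTg (14067 UMIs), a log2 ratio of 2.54 (2.48 to 2.60). These cells made up 24.3% of the kept EL1 cells and held 69.6% of the family UMIs (68.1% to 71.0%), and in WTg they made up 21.3% of the cells and held 66.4% of the UMIs (65.8% to 67.0%). With finer clustering (resolution 2) the class held 148 EL1 and 66 WTg cells, and these carried 49.1% and 41.0% of the family UMIs. In all other clusters the family stood at 40.9 CPM in EL1 and at 279 CPM in WTg, with a log2 ratio of 2.77 (2.68 to 2.86). The pooled level was thus higher in WTg inside and outside the class. Outside it the libraries were compared across different clusters, since clusters 0, 7 and 10 were nearly all EL1 and clusters 3 and 4 nearly all WTg. Of the 13355 genes with at least 10 UMIs in this class, 6.39% were higher and 6.57% lower by at least 2-fold, and the 5 members stood among the higher ones. The class held most of the UMIs on which the members were chosen, so nothing is read from that either.

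By their point values the copies kept their order of ratios within the neuroendocrine-like cells, but the intervals of Serpina1c, Serpina1b and Serpina1a overlapped there. Serpina1e went from 5.52 CPM in EL1 to 59.4 CPM in WTg, at a log2 ratio of 3.43 (2.99 to 3.89). Serpina1c went from 211 to 1336 CPM, at 2.66 (2.59 to 2.74), Serpina1b from 31.0 to 180 CPM, at 2.54 (2.35 to 2.73), and Serpina1a from 30.5 to 163 CPM, at 2.41 (2.22 to 2.61). Serpina1d went from 45.2 to 142 CPM, at 1.65 (1.48 to 1.82). Outside the class the order was another: Serpina1c had a ratio of 3.02 (2.92 to 3.12), Serpina1b 2.88 (2.51 to 3.27), Serpina1e 2.64 (1.90 to 3.45), Serpina1a 1.61 (1.33 to 1.90) and Serpina1d 0.89 (0.55 to 1.23), and the intervals of the first 3 overlapped.

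Clusters that held at least 20 cells of both libraries allowed the same cluster to be compared. In cluster 2, which is neuroendocrine-like and whose leading genes include all 5 members together with Pcsk2, Snap25 and Chgb, the family stood at 474 CPM in its 24 EL1 cells and at 1938.4 CPM in the 178 WTg cells, at a log2 ratio of 2.03 (1.88 to 2.19). Within it the log2 ratio of Serpina1c was 2.86 (2.61 to 3.11), and those of the other copies lay between 0.81 and 1.21. These values rested on 2 EL1 cells that held 125 and 81 of the 336 family UMIs. Without them, a setting chosen after the data had been seen, the family ratio was 3.27 (3.02 to 3.53), that of Serpina1c 3.83, of Serpina1a 3.08, of Serpina1b 2.58 and of Serpina1d 1.52, and Serpina1e was left with 2 EL1 UMIs. Without the 2 cells with the most family UMIs in each library the family ratio was 2.97 (2.72 to 3.23). In cluster 6, led by histone genes, Top2a and Mki67 and unnamed by the marker rule, the family level was 104 CPM in EL1 and at 679 CPM in WTg, with a log2 ratio of 2.71 (2.56 to 2.86), or 2.13 (1.96 to 2.31) without the 2 cells with the most family UMIs in each library. Cluster 11, led by the immediate early genes Fos and Egr4 and also unnamed, had 161 CPM in EL1 and at 435 CPM in WTg, with a log2 ratio of 1.43 (1.18 to 1.69). There the ratio was 2.78 without the 2 EL1 cells with the most family UMIs and 0.99 (0.55 to 1.44) without 2 such cells in each library. In cluster 5, a group of shallow barcodes led by nuclear RNAs, EL1 cells stood at 52.5 CPM and WTg cells at 169 CPM. The log2 ratio of 1.68 (1.07 to 2.33) rested on few cells. Without the 2 EL1 cells with the most family UMIs it was 1.99 (1.22 to 2.85). Without 2 such cells in each library it was 0.03 (-0.93 to 1.03), with levels of 42.4 CPM (EL1) and 43.3 CPM (WTg). A difference in the remaining cells of cluster 5 was thus not resolved. In cluster 8, shallow barcodes with acinar markers, the EL1 level of 11.2 CPM rested on 2 UMIs and the WTg level of 498 CPM on 173. In the macrophage-like cluster 9 the levels were 5.65 CPM (EL1, 3 UMIs) and 4.05 CPM (WTg, 4 UMIs). The log2 ratio of -0.48 (-3.04 to 2.29) there resolved no difference.

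Ordered by family level, WTg cluster 2 stood first among the 19 library and cluster groups with at least 20 cells, at 1938.4 CPM, followed by WTg cluster 6 at 679 CPM. WTg cluster 8, EL1 cluster 2 and WTg cluster 11 came next, at 498, 474 and 435 CPM, and the intervals of their neighbouring ratios included 0, so that their order is not resolved. Without the 2 cells named above, EL1 cluster 2 stood at 202 CPM. Without their 2 cells with the most family UMIs, WTg clusters 2, 6 and 8 stood at 1584, 373 and 313 CPM. WTg clusters 11 and 5 then stood at 126 and 43.3 CPM, so the places of these groups below the first rested on few cells. With all cells counted, EL1 cluster 1, where most neuroendocrine-like EL1 cells lay, came next at 309 CPM. The acinar-like WTg cluster 3 followed at 280 CPM, with a log2 ratio between them of 0.14 (0.06 to 0.22). The acinar-like WTg cluster 4, led by the elastase and chymotrypsin genes Cela3b and Ctrl, stood at 51.5 CPM, not resolved from EL1 clusters 5 (52.5 CPM) and 7 (49.9 CPM). EL1 cluster 0, the largest EL1 cluster, stood at 25.1 CPM. The lowest 5 groups, from 11.6 to 3.58 CPM, were not resolved from the next group down among them and included the macrophage-like cells of both libraries.

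**Figure D2:**
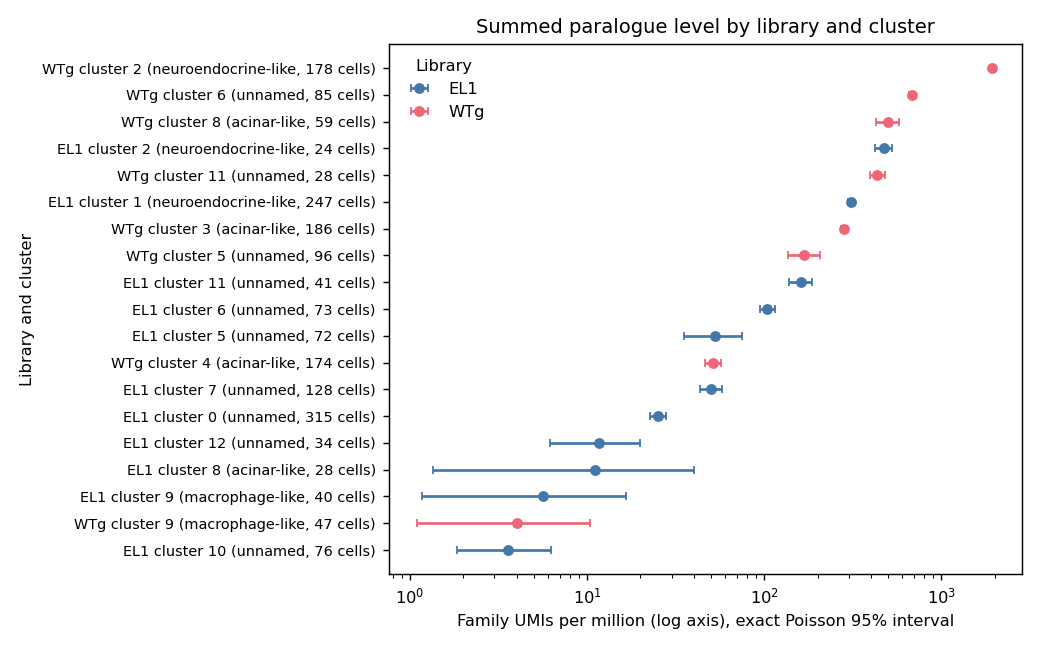
Family UMIs per 1000000 (log axis) in each library and cluster with at least 20 cells, ordered from highest to lowest, with exact Poisson 95% intervals. WTg cluster 2 stands alone at 1938.4 CPM, and the macrophage-like groups of both libraries lie near the lower end, at 5.65 and 4.05 CPM.

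Immune cells, which held few family UMIs, were taken as the background. The macrophage-like, T or NK-like and B-like cells together held 3 family UMIs among 50 EL1 cells and 5 among 67 WTg cells, or 4.995 CPM (1.03 to 14.6) and 4.50 CPM (1.46 to 10.5). The same cells showed a family UMI in 4% of EL1 cells and 7.46% of WTg cells, at median depths of 6882 and 8161 UMIs. Macrophage-like cells held 3 of these UMIs in EL1 and 4 in WTg. Levels within these intervals, as in EL1 clusters 8, 10 and 12, are not read as expression. Whether the UMIs of the immune cells were ambient or their own was not tested. Hepatocytes, the usual source of the protein, were not visible as a class: their markers Fgb and Fga had 0 UMIs in both libraries, and Alb had 147 UMIs in EL1 and 30 in WTg. The summed hepatocyte list (895 CPM in EL1 and 626 CPM in WTg) was nearly all Ttr, at 870 and 618 CPM, a gene that pancreatic islet cells also express.

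The make-up of the family differed between cell groups. Serpina1c supplied 67.0% of the family UMIs in EL1 (65.5% to 68.5%) and 75.6% in WTg (74.98% to 76.1%), whereas Serpina1d supplied 12.7% in EL1 and 5.90% in WTg. Serpina1b held 8.39% and 8.41%, Serpina1a 10.3% and 7.57%, and Serpina1e 1.64% and 2.55%. In the acinar-like WTg cluster 3 the share of Serpina1c was 90.8% (89.6% to 91.9%) of 2582 UMIs, and in the acinar-like WTg cluster 4 it was 83.2% of 394 UMIs. The neuroendocrine-like WTg cluster 15, with 13 cells, had the most even mixture in that library: 50.7% Serpina1c, 23.4% Serpina1a, 10.9% Serpina1b, 7.72% Serpina1d and 7.31% Serpina1e. Only 5 of these 13 cells held at least 20 family UMIs, and their Serpina1c shares ranged from 14.7% to 65.9%. The 24 EL1 cells of cluster 2 were more even still, with 40.5% Serpina1c (35.2% to 45.9%), 19.0% Serpina1a, 17.9% Serpina1b, 17.3% Serpina1d and 5.36% Serpina1e, but 2 cells supplied 125 and 81 of the 336 UMIs. The other 22 cells had 48.5% Serpina1c (39.6% to 57.4%), 25.4% Serpina1d, 15.4% Serpina1b, 9.23% Serpina1a and 1.54% Serpina1e, from 130 UMIs. The EL1 cells of cluster 1 had 68.7% Serpina1c and the WTg cells of cluster 2 had 71.7%.

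**Figure D3:**
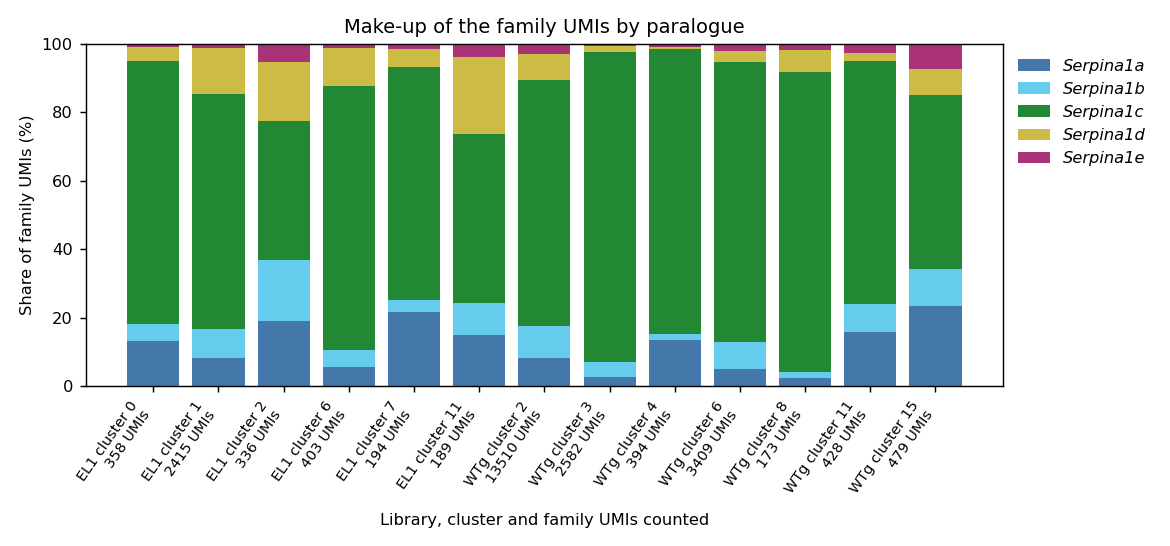
Share of the family UMIs (percent) supplied by each paralogue in the library and cluster groups with at least 173 family UMIs, with the number of UMIs under each bar. Serpina1c fills from 40.5% (EL1 cluster 2) to 90.8% (WTg cluster 3) of a bar, and Serpina1d takes 22.8% of EL1 cluster 11 and 2.34% of WTg cluster 11. Without the 2 cells with the most family UMIs in each library, these Serpina1d shares were 18.6% (10.3% to 29.7%) and 5.36% (1.99% to 11.3%). Those intervals overlap.

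Serpina1c led in nearly every cell that could be judged. Among cells with at least 20 family UMIs it was the most abundant copy in 49 of 52 EL1 cells and in 151 of 155 WTg cells. Of the remaining cells Serpina1a led in 1 EL1 and 3 WTg cells, Serpina1b in 2 EL1 cells and Serpina1e in 1 WTg cell, and Serpina1d led in 0. The share of Serpina1c in those cells ranged from 25% to 95% in EL1 (median 63.8%) and from 14.7% to 100% in WTg (median 82.2%). In acinar-like WTg cells its median share was 92.9% (32 cells), against 75.8% in neuroendocrine-like WTg cells (92 cells).

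A small number of cells carried much of the signal. In EL1, 386 of 1113 cells had a family UMI, 46 cells held 50% of them and the highest cell held 125. In WTg, 467 of 905 cells had a family UMI, 20 cells held 50% of them, and 43 cells held at least 100 family UMIs each, against 1 cell in EL1. The highest WTg cell, of cluster 2, held 1419 family UMIs among 126258: 370 from Serpina1a, 335 from Serpina1b, 442 from Serpina1c, 218 from Serpina1d and 54 from Serpina1e. The next WTg cell, also of cluster 2, held 1317 family UMIs among 42275, of which 1137 came from Serpina1c. The highest EL1 cell, of cluster 2, held 33 Serpina1a, 22 Serpina1b, 51 Serpina1c, 13 Serpina1d and 6 Serpina1e UMIs among 45136. These 3 cells were neuroendocrine-like, whereas WTg cells with 823 and 806 family UMIs, also among the 5 highest, lay in cluster 6, and an EL1 cell with 87, among the 5 highest there, lay in cluster 11. The share of Serpina1c was 31.1% in the highest WTg cell and 86.3% in the next, both of cluster 2. Among the 85 WTg cells of cluster 2 with at least 20 family UMIs it ranged from 17.2% to 100%, with a median of 76.5%.

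The shift was not limited to those cells. Within neuroendocrine-like cells the median level per cell was 173 CPM in EL1, with quartiles of 48.6 and 411 CPM, and 486 CPM in WTg, with quartiles of 144 and 1622 CPM. The highest cells stood at 4732 and 31153 CPM. Leaving out the 1% of cells with the most family UMIs in each library gave a log2 ratio of 2.35 (2.30 to 2.41) over all kept cells and 2.21 (2.14 to 2.28) in the class.

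**Figure D4:**
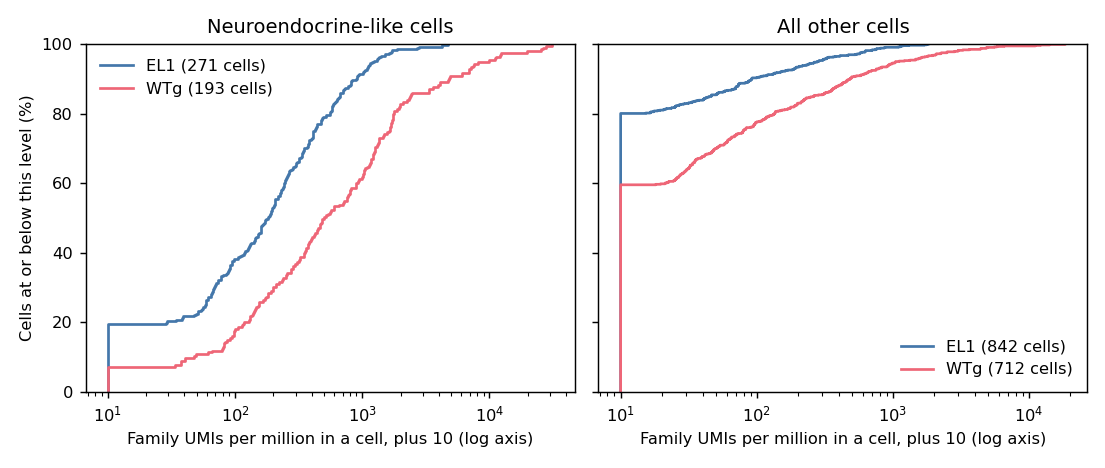
Cumulative share of cells (percent) at or below each family level, in UMIs per 1000000 plus 10 on a log axis, for neuroendocrine-like cells (left, 271 EL1 and 193 WTg cells) and all other cells (right, 842 EL1 and 712 WTg cells). The WTg curve lies to the right of the EL1 curve in both panels, and cells with no family UMI form the vertical start of each curve, 19.6% of EL1 and 7.25% of WTg neuroendocrine-like cells.

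The number of copies detected in a cell varied. In neuroendocrine-like cells all 5 were found in 12 of 271 EL1 cells (4.43%) and in 50 of 193 WTg cells (25.9%), and exactly 1 copy in 68 EL1 and 40 WTg cells. No copy was found in 53 EL1 and 14 WTg cells. Exactly 2, 3 and 4 copies were found in 65, 40 and 33 EL1 cells and in 31, 29 and 29 WTg cells. Whether depth alone would give these counts was not tested. Spearman's rho between the levels of 2 copies across these cells ranged from 0.23 (Serpina1d and Serpina1e) to 0.55 (Serpina1b and Serpina1c) in EL1 and from 0.56 to 0.76 (Serpina1b and Serpina1d) in WTg. These values describe 271 and 193 cells of 1 library each, which share depth and ambient RNA.

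Depth differed between the libraries, so the detection was repeated with each cell thinned to 2000 UMIs. Of the EL1 cells, 140 of 1051 then showed a family UMI (13.3%, 11.3% to 15.5%), and of the WTg cells 216 of 836 did (25.8%, 22.9% to 28.9%), compared with 34.7% and 51.6% without thinning. The 62 EL1 and 69 WTg cells with fewer UMIs were left out. In neuroendocrine-like cells the thinned shares were 35.7% in EL1 (29.96% to 41.7%) and 63.4% in WTg (56.1% to 70.2%). For Serpina1c in this class they were 28.6% and 57.6%, for Serpina1a 5.95% and 16.8%, for Serpina1b 4.09% and 16.2%, for Serpina1d 10.4% and 15.7%, and for Serpina1e 0.743%, which is 2 cells, and 6.81%. The intervals for Serpina1d overlapped (7.03% to 14.7% and 10.9% to 21.7%), so a difference in the share of Serpina1d cells was not resolved at this depth. In immune cells the thinned share was 0 of 47 EL1 cells, which allows up to 6.38%, and 1 of 60 WTg cells.

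The neighbours of the array along the chromosome were examined next, from a list of 20 genes of which 18 were in the files. Only 7 had at least 10 UMIs over both libraries, and 5 of these were higher by at least 2-fold in WTg, against 10.1% of all genes, and 1 was lower. Ppp4r4, which encodes a regulatory subunit of protein phosphatase 4 and lies 114 kb from the nearest member, stood at 9.88 CPM in EL1 and at 68.3 CPM in WTg, with a log2 ratio of 2.79 (2.63 to 2.95). Serpina10, the protein Z-dependent protease inhibitor, 96.7 kb away, stood at 52.8 CPM and 248 CPM, at 2.23 (2.16 to 2.30). Serpina6, the corticosteroid-binding globulin, lies between Serpina10 and the array and was the most abundant of the neighbours, at 350 CPM and 691 CPM, a log2 ratio of 0.98 (0.95 to 1.01). Serpina11, on the other side, had 3 UMIs in EL1 and 26 in WTg, at 3.32 (1.61 to 5.69). Serpina3g had 0 and 20 UMIs, a log2 ratio of at least 2.94, counted against the floor of 3 UMIs per library. Serpina3f, named after its value was seen to complete the count, had 8 and 24 UMIs. Serpina3n, an acute phase serpin at the far end of the list, was lower in WTg, at 2.16 CPM against 0.515 CPM, a log2 ratio of -2.07 (-2.92 to -1.30). In neuroendocrine-like cells 5 of 5 neighbours with at least 10 UMIs were higher by at least 2-fold, against 6.39% of all genes, and Serpina6 had a log2 ratio of 1.48 (1.38 to 1.58) there. The part of the strain background in these values was not tested.

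**Figure D5:**
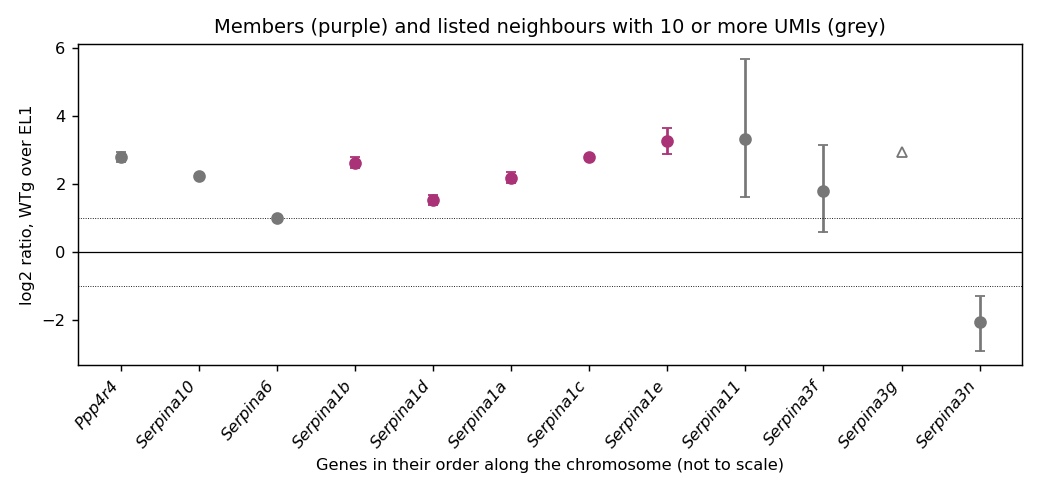
log2 ratio of WTg over EL1 over all kept cells for the 5 members (purple) and the 7 listed neighbours with at least 10 UMIs (grey), in chromosomal order and not to scale, with exact 95% intervals. Dotted lines mark 2-fold, and the open triangle is a lower bound for Serpina3g, which had 0 UMIs in EL1. The members lie between 1.52 and 3.26, Ppp4r4 and Serpina10 lie within that range, and Serpina3n lies below 0.

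Serpins elsewhere in the genome did not share one direction. Of 15 listed serpins with at least 10 UMIs, 3 were higher and 3 lower by at least 2-fold, against 10.1% and 6.90% of all genes, and their median log2 ratio was -0.22, against -0.14 over all genes. The most abundant in EL1 were Serpinb1a (415 and 244 CPM), which inhibits neutrophil proteases, Serpinb6a (131 and 118 CPM) and Serpini1 (95.7 and 147 CPM), known as neuroserpin, and in WTg Serpini2, known as pancpin, stood second. Serpini2 had the largest ratio, at 1.48 CPM in EL1 against 198 CPM in WTg, which is 7.07 (6.69 to 7.47) on the log2 scale, followed by the collagen chaperone Serpinh1, at 4.24 (3.65 to 4.90). Serpine2, a thrombin inhibitor, had the lowest, at -3.19, with 69.4 and 7.60 CPM.

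Proteases that inhibitors of this kind can meet were compared too. Of 11 listed pancreatic and neutrophil serine proteases with at least 10 UMIs, 6 were higher and 1 lower by at least 2-fold, against 10.1% and 6.90% of all genes, and the median log2 ratio was 1.88, against -0.14 over all genes. The most abundant genes, the digestive enzymes chymotrypsinogen Ctrb1, elastase Cela2a and trypsinogen Prss2, had log2 ratios of 0.29, 0.45 and -0.31. The largest ratios belonged to Prss1 (36.0 and 5249 CPM, log2 7.19) and Ctrl (13.9 and 213 CPM, log2 3.93), and the lowest to the kallikrein Klk1, at -1.11, and Prss2. In neuroendocrine-like cells 6 of 10 such genes were higher and 0 lower by at least 2-fold, against 6.39% and 6.57% of all genes. The median log2 ratio there was 1.89. Klk1 was among the higher genes in this class, the reverse of its direction over all kept cells. Prss1 is a close copy of other trypsinogens, and its level carries the same uncertainty as those of the members.

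Genes that act on the production of the protein came next. None of 13 liver-type transcription factors passed 2-fold in either direction, over all kept cells or among the 11 of them with enough UMIs in neuroendocrine-like cells, while 10.1% and 6.90% of all genes did over all kept cells and 6.39% and 6.57% in that class. Stat3, Cebpa and Cebpb, the most abundant of the list, had log2 ratios of 0.04, -0.32 and -0.17, and Foxa3 had the highest, 0.75 (0.65 to 0.84). Of 23 genes of the folding and disposal route for secreted glycoproteins in the endoplasmic reticulum, 0 passed 2-fold, and the chaperone Hspa5 stood at 1160 and 1352 CPM. Among receptors and signalling genes of the acute phase response, 1 of 7 was higher by at least 2-fold, Il1r1, with 7 UMIs in EL1 and 33 in WTg. In neuroendocrine-like cells 1 of 6 was lower, the signalling inhibitor Socs3, with 1179 and 319 UMIs and a log2 ratio of -1.70 (-1.88 to -1.52). Both were named after their values had been seen.

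Other proteins that the liver secretes were compared as well. Of 14 acute phase and liver secreted protein genes with at least 10 UMIs, 1 was higher and 8 were lower by at least 2-fold in WTg, against 10.1% and 6.90% of all genes, with a median log2 ratio of -1.20 against -0.14 over all genes. The one higher gene was Ambp, the precursor of alpha-1-microglobulin and bikunin, at 197 and 464 CPM, a log2 ratio of 1.23 (1.19 to 1.27). Apoe (685 and 1054 CPM) and Ttr (870 and 618 CPM) were the most abundant. Saa3, an acute phase apolipoprotein, had the lowest ratio, -4.14 (-5.62 to -2.98), and Ahsg, or fetuin A, had -2.49 (-2.85 to -2.15). In neuroendocrine-like cells 1 of 10 such genes was higher and 4 were lower, against 6.39% and 6.57% of all genes, with a median of -0.27. There Ambp had a log2 ratio of 0.73, Alb had 71 UMIs in EL1 and 0 in WTg, and the higher gene, named after its value was seen, was Hp (9 and 33 UMIs), which was lower over all kept cells, at -1.36.

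Among the 10 genes whose pattern was most like that of the family over the 19 library and cluster groups were Nxph1, Ajap1, Slc29a4, D930028M14Rik, Syt5, Adcy5, Phyhipl, Vsig2 and Scg3, with Pearson's r of log2(CPM + 1) from 0.94 to 0.89. Syt5 is a synaptotagmin of secretory vesicles, Scg3 a granin of secretory granules and Slc29a4 a monoamine transporter. Those named had higher pooled CPM in WTg, with log2 ratios from 0.67 (Phyhipl) to 1.88 (Nxph1), below that of the family. Over the 8 WTg groups alone the 5 most alike were Syt5, Chga, Vash2, Scg3 and Chgb, with r of at least 0.98, and of these Chga was lower in WTg than in EL1, at 2134 CPM against 3560 CPM. Over the 11 EL1 groups r was 0.83 for Chga, 0.84 for Chgb and 0.83 for Scg3. The groups share libraries and were formed from the expression of these genes, so the values are descriptions.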

How the data were processed

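Single-cell libraries were made with the 10x Genomics Chromium 3′ chemistry from dissociated, sorted viable pancreatic cells. According to the file headers and the submitters' processing notes, the authors used Cell Ranger 6.0.2 with GRCm38, and R 4.1 with Seurat 4.0.5. The deposited values used here were raw UMI counts per gene and barcode. A dense count table, in which no barcode exceeded 9801 genes, served as an alternative. The members, gene lists and markers were chosen with earlier results of these data known, and so were the thresholds that name a cluster.

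UMIs were summed over kept cells and given as CPM. Intervals were exact Poisson (levels), Clopper-Pearson (shares) and conditional binomial (ratios), and 3 UMIs served as the floor for a count of 0. Clustering used scanpy 1.11.5 (2000 variable genes, 30 components, 15 neighbours, Leiden resolution 1) without the 5 members, Serpina1f, Mettl3, Plk1 and the cell cycle genes of Seurat 5.3.0. A cluster took a name when at least 3 markers were raised (log2 difference of at least 1 with 10 CPM added, in at least 10% of cells), 1 or more stood among its 10 leading genes and no other list had as many. Scrublet called 4 doublets in each library, 0.359% and 0.442% of cells, and no cell was removed. Coding sequences were aligned with MAFFT 7.526. Named genes were the members, the 10 most like the family, the 5 most like it in WTg and, per list, the 3 most abundant and the 2 highest and 2 lowest ratios, except for an item that is not reported here. The interval code was tested on simulated data. Alternatives were the cell filter, the dense table, edgeR 4.0.16 TMM scaling, weighting, doublets, high cells, clustering settings, thinning depth and count minimum.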

Additional observations from a re-analysis of the deposited data

Results flagged for a closer look

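Barcodes that failed the cell filter also carried the transcripts, and more so in WTg. The 583 WTg barcodes left out held 315 family UMIs, or 169 CPM (151 to 189), and the 508 EL1 barcodes left out held 40, or 33.0 CPM, which gives a log2 ratio of 2.35 (1.88 to 2.87). Among the barcodes over 20% mitochondrial UMIs the levels were 166 and 33.6 CPM.

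Serpina1d in cluster 11, the immediate early gene cluster, went against its direction elsewhere: it stood at 36.6 CPM in EL1 and at 10.2 CPM in WTg, with a log2 ratio of -1.85 (-3.01 to -0.84), while the other 4 copies and the family had higher pooled levels in WTg there. The difference from other clusters was not tested. The EL1 level rested on 43 UMIs in 6 of 41 cells, 21 of them in 1 cell, and the WTg level on 10 UMIs in 3 of 28 cells. Without the 2 EL1 cells of the cluster with the most family UMIs the ratio was -0.21 (-1.56 to 1.09), and without 2 such cells in each library it was -0.80 (-2.48 to 0.69).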

How the results depend on the processing

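No paired analysis was possible because EL1 and WTg are single libraries, between which nothing was tested. The family ratio over all kept cells (log2 2.62) was 2.50 in the dense table and, equally, without cells of over 10000 genes, which removed 1 EL1 and 3 WTg cells, 2.76 with TMM scaling, 2.44 with each cell weighted equally and 2.35 without the 1% of cells with the most family UMIs. The stricter filter, all deposited barcodes and removal of doublets left it within its interval. TMM shifted every gene by 0.13 and moved the share of higher genes among those past 2-fold from 59.4% to 68.4%. In neuroendocrine-like cells (2.54) the ratio was 2.66 at resolution 0.5, 3.09 at resolution 2, 2.70 with members and cell cycle genes kept, 2.60 with genes centred within each library and 2.21 without the 1% of cells. The share held by that class (69.6% in EL1 and 66.4% in WTg) was 49.1% and 41.0% at resolution 2, where the class held 148 and 66 cells, 73.9% in EL1 with members kept, 67.2% in WTg with centred genes, and 67.6% and 63.6% without the 1% of cells. The thinned share of cells (13.3% and 25.8%) was 8.45% and 19.9% at 1000 UMIs, 22.4% and 36.1% at 5000, 5.33% and 15.6% with 2 or more family UMIs, and 34.7% and 51.6% without thinning. Genes past 2-fold numbered 2752, and 1541 with at least 50 UMIs. Over all kept cells no member's ratio changed sign in these alternatives: they ranged from 1.72 to 2.32 for Serpina1a, 2.28 to 2.81 for Serpina1b, 2.49 to 2.93 for Serpina1c, 1.13 to 1.65 for Serpina1d and 3.07 to 3.53 for Serpina1e. The causes were not tested. Depth limited Serpina1e and Serpina1f and the immune and EL1 acinar-like groups, where a few UMIs set the level.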
